A study of Mus musculus with 12 samples.

Results

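Stab1, Stab2, Lyve1, Mrc1, Clec4g, Fcgr2b, Oit3 and Gpr182 encode proteins of the liver sinusoid, most of them receptors with which its cells take up material from blood. The 8 genes were taken by symbol from the deposited gene lists, and each symbol matched 1 row at both stages, out of 31053 genes listed at embryonic stage E16.5 and 22597 at P3, postnatal day 3. Their transcripts were followed in the cells of 9 separate single-cell libraries of whole mouse liver.

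The liver sinusoid is a capillary lined by a fenestrated endothelium without a continuous basement membrane, and its endothelial cells are among the most active scavenger cells of the body. Stabilins, lectins and Fc receptors on these cells bind hyaluronan, collagen fragments, modified lipoproteins, glycoproteins with exposed mannose and small immune complexes, and clathrin-coated vesicles carry them to lysosomes. Kupffer cells, the macrophages resident in the same vessels, share some of the receptors and take up larger particles. In the fetus the liver is also the main site of blood formation, so most of its cells are blood precursors.

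The study used mice with the Nodder (Ndr) allele of Jag1, a missense allele of a Notch ligand. Jag1Ndr/+ parents were crossed, and livers of Jag1+/+, Jag1Ndr/+ and Jag1Ndr/Ndr offspring were dissociated with enzymes, with TrypLE added at E16.5 only, after which dead cells were removed on magnetic columns. Per the labels' protocols, jaundice was the sign by which homozygotes were selected at P3, and control pups were genotyped afterwards. The labels named 2 samples for each of the 6 groups of stage and genotype, all as liver, although the protocols mention that spleens were dissected too at P3, and sequencing was on NextSeq550 and NovaSeq S4 instruments, without a record of which library ran on which.

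The 12 deposited matrices held 9 separate libraries. The E16.5 matrix of Jag1Ndr/+ replicate 2 repeated that of Jag1+/+ replicate 2 in each of its 23166 barcodes, so both entered once, as the shared library. The other 4 libraries at that stage were Jag1+/+ replicate 1, Jag1Ndr/+ replicate 1 and Jag1Ndr/Ndr replicates 1 and 2. At P3, Jag1+/+ replicate 1 (library A) and Jag1+/+ replicate 2 (library B) also occurred under a homozygous label, and all 15754 barcodes of the matrix of Jag1Ndr/+ replicate 2 were in library B, so the genotype of both was unclear and they entered no comparison between genotypes. Jag1Ndr/Ndr replicate 1 shared 19927 barcodes with library A, and the barcodes that remained were library C. Library D was Jag1Ndr/+ replicate 1. Pairs of matrices without a common library shared at most 1.7% of barcodes. Barcodes with at least 1000 unique molecular identifiers (UMIs) and at most 15% mitochondrial UMIs numbered 18357 to 29034 per library at E16.5 and 15024 to 21504 at P3, with median depths of 5325 to 9256 and 2961 to 6235 UMIs. After removal of doublets, 99788 cells remained at E16.5 and 64976 at P3. Nothing in the labels states that replicates came from separate litters, so the p-values measure the spread between these libraries.

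The label of these genes as sinusoidal was read beside the cell classes, which do not separate sinusoidal from other endothelium. Cells were clustered without the 8 genes, and clusters were named from marker lists, so that endothelial-like cells were those led by genes such as Kdr, Cdh5, Ptprb and Ramp2. Endothelial-like cells numbered 129 to 290 per library at E16.5 (931 in all, 0.712% to 1.58% of kept cells) and 79 to 135 at P3 (418 in all, 0.501% to 0.735%), and all 25 endothelial markers were detected in every library's endothelial-like cells. At both stages each of the 8 genes had its highest mean level there. Levels are given as CPM, that is the gene's UMIs scaled to a common class total of 1e+06, from the UMIs summed over the cells of a class in a library. For the same gene, macrophage-like cells reached 52.5% of the endothelial-like mean for Mrc1 at E16.5 and 61.3% at P3. The shares were 7.61% and 7.67% for Stab2, and 7.2% and 7.19% for Stab1, while the other 5 genes stayed between 0.302% and 3.04%. Erythroid-like cells, which should lack these receptors and are the most numerous class, held 0.0802% to 0.457% of the endothelial-like level. Of the erythroid-like clusters, 5 had no erythroid marker among their 10 leading genes and were named by mean marker level alone, among them 1 at P3 led by Ins2, Ins1 and Mt2. In macrophage-like cells, Mrc1, Stab2 and Stab1 stood furthest above that share.

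**Figure D1:**
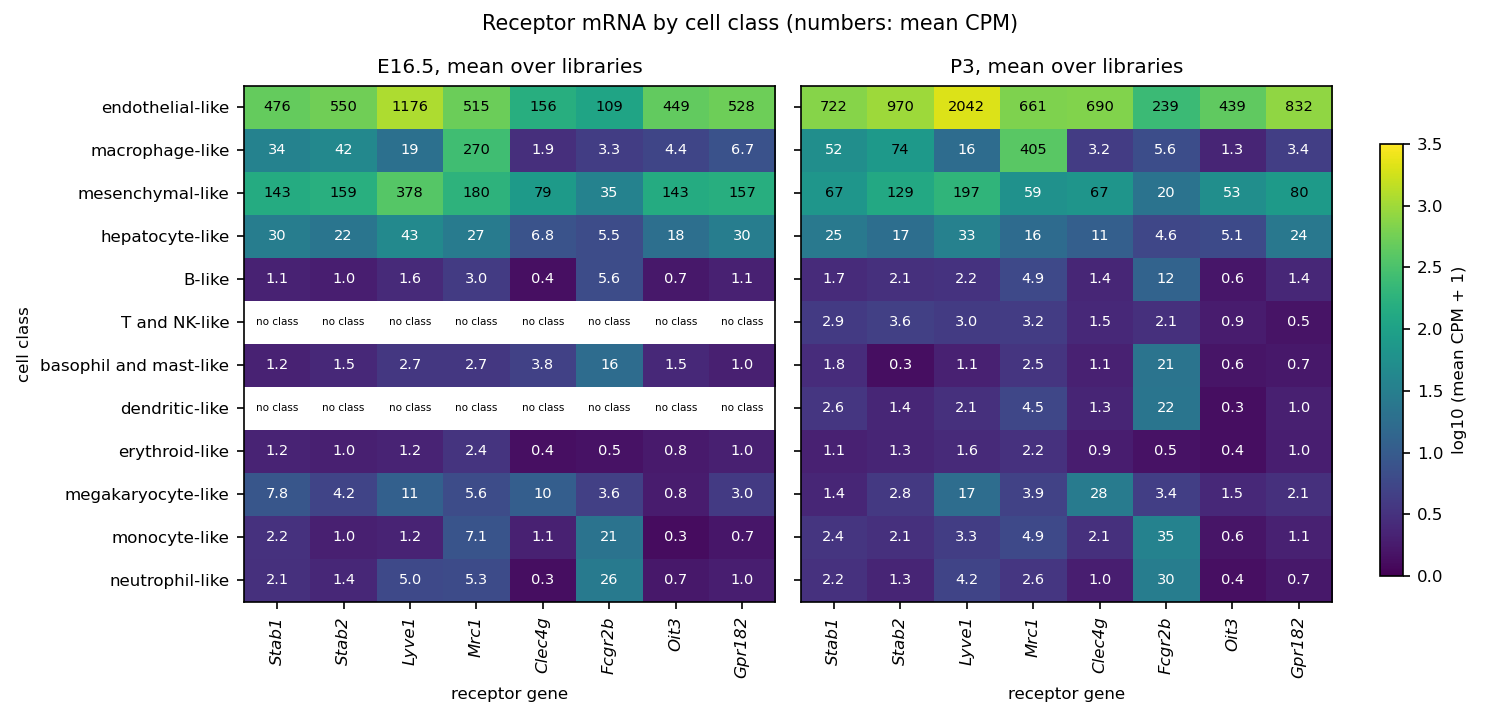
Mean CPM (printed in each cell, and coloured as log10 of the mean CPM plus 1) of the 8 genes (columns) in each cell class (rows), averaged over the 5 libraries at E16.5 (left) and the 4 at P3 (right). Endothelial-like cells are the top row, with every gene at its highest there, and in the macrophage-like row Mrc1 stands at 270 and 405 CPM.

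All 8 are protein-coding genes on GRCm38, with coordinates from GENCODE M21. Stab1 (ENSMUSG00000042286) lies on chromosome 14 from 31139013 to 31168641, minus strand, and Stab2 (ENSMUSG00000035459) on chromosome 10 from 86841198 to 87008025, minus strand. Lyve1 (ENSMUSG00000030787) lies on chromosome 7 from 110850607 to 110863239, minus strand, and Mrc1 (ENSMUSG00000026712) on chromosome 2 from 14229392 to 14332057, plus strand. Clec4g (ENSMUSG00000074491) lies on chromosome 8 from 3707064 to 3720651, minus strand, and Fcgr2b (ENSMUSG00000026656) on chromosome 1 from 170958617 to 170976547, minus strand. Oit3 (ENSMUSG00000009654) and Gpr182 (ENSMUSG00000058396) lie on chromosome 10, from 59422958 to 59441778 and from 127747276 to 127751732, both on the minus strand. Stab1 overlaps Nt5dc2, and Gpr182 overlaps Zbtb39, on the opposite strand. Stab2, Clec4g and Fcgr2b overlap Gm gene models on the opposite strand, and Mrc1 holds Mir511 on its own strand. Whether the counting used strand is not given in the sources used here, so reads of overlapping opposite-strand genes could not be told apart.

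The stretches just before the annotated starts are shown for 4 members, so that a gene called higher at P3 in both endothelial-like and macrophage-like cells (Stab2) and a gene called higher in endothelial-like cells (Clec4g) can be read beside Stab1 and Mrc1, which were called in neither. The sequences are from RefSeq (GRCm38.p6), 5' to 3' on the gene's strand. They hold at most 250 bases upstream of the RefSeq start, less any bases past the GENCODE start. For Stab2 (167 bases) and Mrc1 (228 bases) the bases next to the RefSeq start were left out in this way and not searched. Capitals mark matches to AGGAAG, a core bound by ETS factors, or TGCTGA, a core of the large MAF factors' site, on either strand. The windows are chr14:31168642-31168891 for Stab1, chr10:87008026-87008192 for Stab2, chr2:14229164-14229391 for Mrc1 and chr8:3720652-3720901 for Clec4g.
Stab1: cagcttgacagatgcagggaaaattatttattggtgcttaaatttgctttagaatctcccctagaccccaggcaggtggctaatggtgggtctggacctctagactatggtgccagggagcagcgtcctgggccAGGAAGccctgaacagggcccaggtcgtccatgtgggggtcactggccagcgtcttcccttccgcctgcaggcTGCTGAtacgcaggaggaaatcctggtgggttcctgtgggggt
Stab2: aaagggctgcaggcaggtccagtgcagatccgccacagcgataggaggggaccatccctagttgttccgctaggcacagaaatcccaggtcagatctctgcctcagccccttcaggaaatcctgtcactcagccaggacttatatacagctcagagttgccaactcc
Mrc1: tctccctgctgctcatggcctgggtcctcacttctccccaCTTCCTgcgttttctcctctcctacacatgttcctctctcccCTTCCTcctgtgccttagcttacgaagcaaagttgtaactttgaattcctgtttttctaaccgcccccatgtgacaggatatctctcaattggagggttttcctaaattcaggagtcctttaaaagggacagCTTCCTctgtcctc
Clec4g: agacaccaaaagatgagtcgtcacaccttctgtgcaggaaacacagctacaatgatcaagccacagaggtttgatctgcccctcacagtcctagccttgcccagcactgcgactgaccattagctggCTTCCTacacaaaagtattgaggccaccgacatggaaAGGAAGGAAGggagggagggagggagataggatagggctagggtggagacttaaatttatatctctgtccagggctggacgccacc
AGGAAG matched 1 time in Stab1, 3 times in Mrc1 and 3 times in Clec4g, where 2 of the matches overlap, and 0 times in the 167 bases of Stab2. It occurs in 29.5% of 32851 promoter windows of 250 bases, 27% of those of 228 bases and 20.1% of those of 167 bases. TGCTGA matched 1 time, in Stab1, against 16.1% of windows of 250 bases. GATAA, a core of GATA factors, matched 0 times in the 4 windows, against 22.6% of all windows of 250 bases, 21.4% of 228 bases and 17% of 167 bases. These matches describe letters in the windows and no binding. For Fcgr2b the RefSeq stretch lay inside the GENCODE gene, so no window is shown. Lyve1, Oit3 and Gpr182 are named only.

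In endothelial-like cells, Clec4g, Fcgr2b, Stab2, Lyve1 and Gpr182 rose from E16.5 to P3, and the call of Gpr182 was lost under most alternatives. A planned gate on marker UMIs, in which few cells were endothelial-like by cluster, ended all 5 calls and turned the direction of all but Clec4g. Stab1, Mrc1 and Oit3 did not pass the test. The comparison used the 5 E16.5 and the 4 P3 libraries, all genotypes together, in the quasi-likelihood test of edgeR, with p-values adjusted by Benjamini and Hochberg's method over all pairs of class and gene (for sums over all kept cells, over their genes), and a gene was called at an adjusted p under 0.05. Each adjusted p for stage or genotype below is from that edgeR test. Of 9647 genes tested in these cells 33.6% were called (1587 higher and 1655 lower), so the 5 of 8 members called stand beside a background of 33.6%. The libraries of the 2 stages did not overlap in CPM for 6 of the 8 genes, as for 24.7% of genes tested. The edgeR fit also scales libraries by TMM. For all 8 members it lay below the change in plain mean CPM, as for Mrc1 (515 to 661 CPM, log2 fit 0.12). Stage went with the TrypLE step, with the software version and with the gene list, and these cannot be told apart from age.

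**Figure D2:**
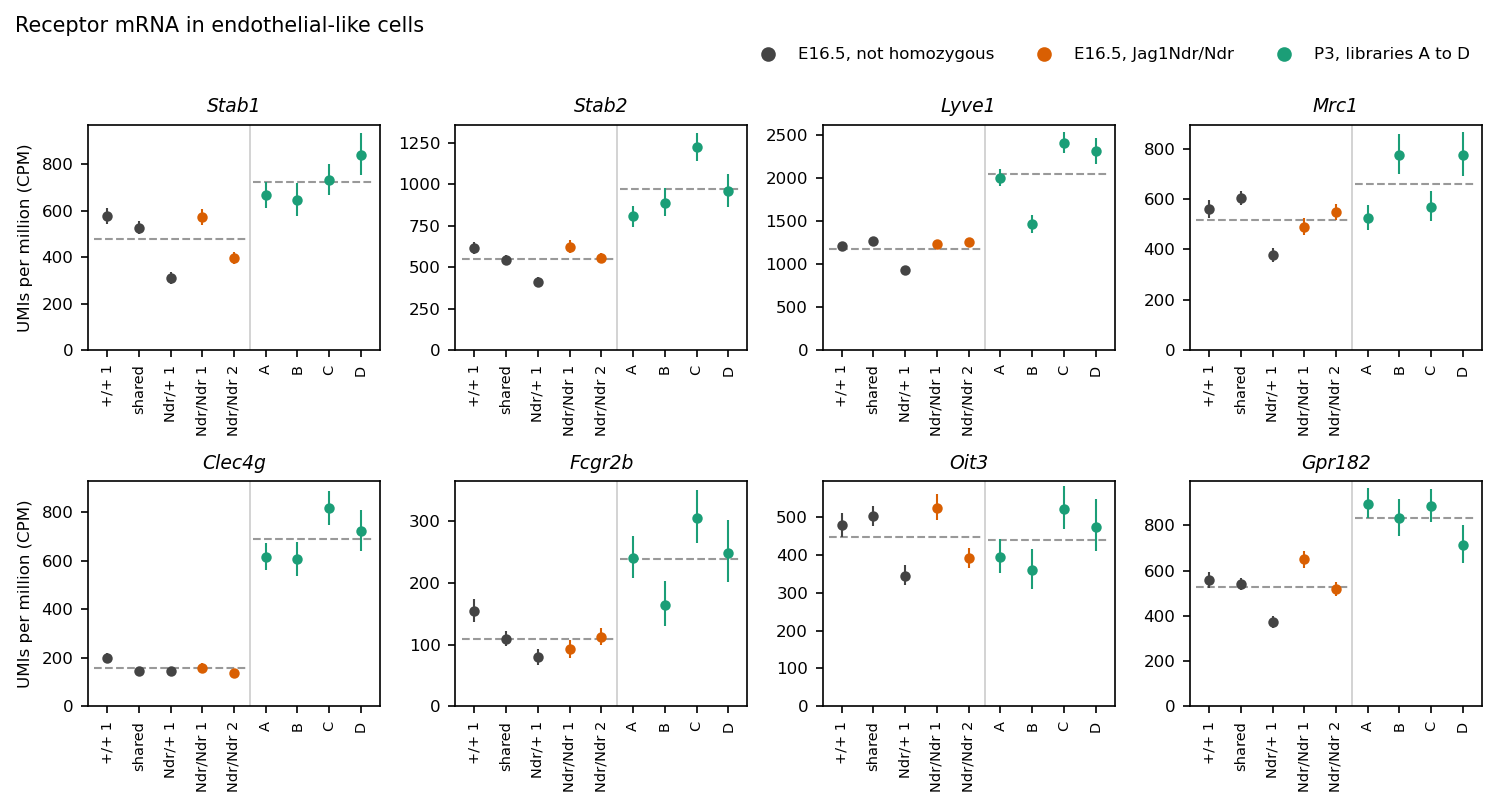
CPM of each of the 8 genes (panels) in the endothelial-like cells of each library (points, with exact 95% Poisson intervals that cover counting error only), with stage means as dashed lines. The P3 libraries A to D are at the right of each panel, and for Clec4g they lie between 605 and 816 CPM, above all E16.5 libraries at 136 to 196 CPM.

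The stabilins are large receptors with epidermal growth factor-like and fasciclin domains that endocytose from the sinusoid. Stab2, the main hyaluronan clearance receptor of sinusoidal endothelium, measured 616 CPM in Jag1+/+ replicate 1, 545 in the shared library, 411 in Jag1Ndr/+ replicate 1, and 623 and 554 in Jag1Ndr/Ndr replicates 1 and 2. In P3 libraries A to D it measured 807, 891, 1225 and 959 CPM. All 4 P3 libraries lay above all 5 E16.5 libraries, and library C was the highest. The mean went from 550 ± 85.1 CPM (SD, n = 5) to 970 ± 181 CPM (SD, n = 4). In the edgeR fit this was a rise of 0.58 (log2, SE 0.148, adjusted p 0.00479).

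Stab1, which takes up SPARC and modified lipoproteins and occurs on some macrophages as well, measured 576, 526, 309, 572 and 396 CPM in the E16.5 libraries in the same order, and 666, 647, 732 and 842 CPM in libraries A to D. The stages did not overlap, although Jag1+/+ replicate 1 and Jag1Ndr/Ndr replicate 1 came close to library B. The mean was 476 ± 118 CPM (SD, n = 5) at E16.5 and 722 ± 88.0 CPM (SD, n = 4) at P3. edgeR gave 0.37 (log2, SE 0.160, adjusted p 0.0693), which did not pass. Stab1 was called in 2 of 20 alternatives, namely DESeq2 and the fit without Jag1Ndr/Ndr replicate 1.

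Lyve1, a membrane hyaluronan receptor shared with lymphatic endothelium, measured 1205, 1270, 924, 1225 and 1254 CPM at E16.5, and 1997, 1458, 2408 and 2307 CPM in libraries A to D. Jag1Ndr/+ replicate 1 was the lowest E16.5 library and library B the lowest at P3, and the stages did not overlap. The mean went from 1176 ± 143 CPM (SD, n = 5) to 2042 ± 427 CPM (SD, n = 4), a rise in edgeR of 0.56 (log2, SE 0.161, adjusted p 0.00986).

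The C-type lectins among the 8 genes were unlike each other. Clec4g (LSECtin), a lectin of liver and lymph node sinusoidal endothelium that binds glycans and T cell ligands, measured 196, 146, 143, 159 and 136 CPM at E16.5, and 616, 605, 816 and 721 CPM in libraries A to D. The lowest P3 library was far above the highest E16.5 library. The mean went from 156 ± 24.0 CPM (SD, n = 5) to 690 ± 99.3 CPM (SD, n = 4), the largest log2 fold change of the 8 genes at 1.89 (SE 0.150, edgeR adjusted p 2.07e-07), at percentile 98.9 of all genes tested in these cells.

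Mrc1, the mannose receptor, which clears glycoproteins with exposed mannose and collagen chains, measured 560, 604, 377, 489 and 546 CPM at E16.5, and 524, 775, 570 and 777 CPM in libraries A to D. Libraries A and C lay within the E16.5 range, so the stages overlapped. The mean was 515 ± 87.7 CPM (SD, n = 5) and 661 ± 133 CPM (SD, n = 4). edgeR gave 0.12 (log2, SE 0.146, adjusted p 0.541). Macrophage-like cells held Mrc1 too, and the part of macrophage RNA in the level of endothelial-like cells was not tested.

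Fcgr2b, the inhibitory IgG receptor, which on sinusoidal endothelium removes small immune complexes, measured 154, 109, 79.3, 91.96 and 112 CPM at E16.5, and 240, 164, 305 and 248 CPM in libraries A to D. Library B was only just above Jag1+/+ replicate 1, and the stages did not overlap. The mean went from 109 ± 28.2 CPM (SD, n = 5) to 239 ± 57.8 CPM (SD, n = 4), a rise in edgeR of 0.91 (log2, SE 0.183, adjusted p 0.000854).

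Gpr182, a chemokine-binding receptor of sinusoidal and lymphatic endothelium, measured 559, 541, 372, 649 and 518 CPM at E16.5, and 896, 831, 886 and 714 CPM in libraries A to D. The stages did not overlap, and library D came nearest to the E16.5 libraries. The mean went from 528 ± 100.3 CPM (SD, n = 5) to 832 ± 83.6 CPM (SD, n = 4). The edgeR fit put the rise at 0.43 (log2, SE 0.159, adjusted p 0.0354). Gpr182 was called in 9 of 20 alternatives, and its adjusted p ranged from 0.0189 to 0.123 when libraries were left out one at a time, so 7 of these 9 fits lost the call.

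Oit3, a zona pellucida-domain protein used as a marker of sinusoidal endothelium, measured 479, 503, 346, 526 and 392 CPM at E16.5, and 396, 360, 523 and 476 CPM in libraries A to D. The stages overlapped almost fully, with means of 449 ± 77.0 CPM (SD, n = 5) and 439 ± 74.2 CPM (SD, n = 4). edgeR gave -0.27 (log2, SE 0.149, adjusted p 0.146). Among the 8 genes Oit3 had the lowest fold change, at percentile 32.3 of all genes tested in these cells, and Mrc1 was next at percentile 56.2.

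**Figure D3:**
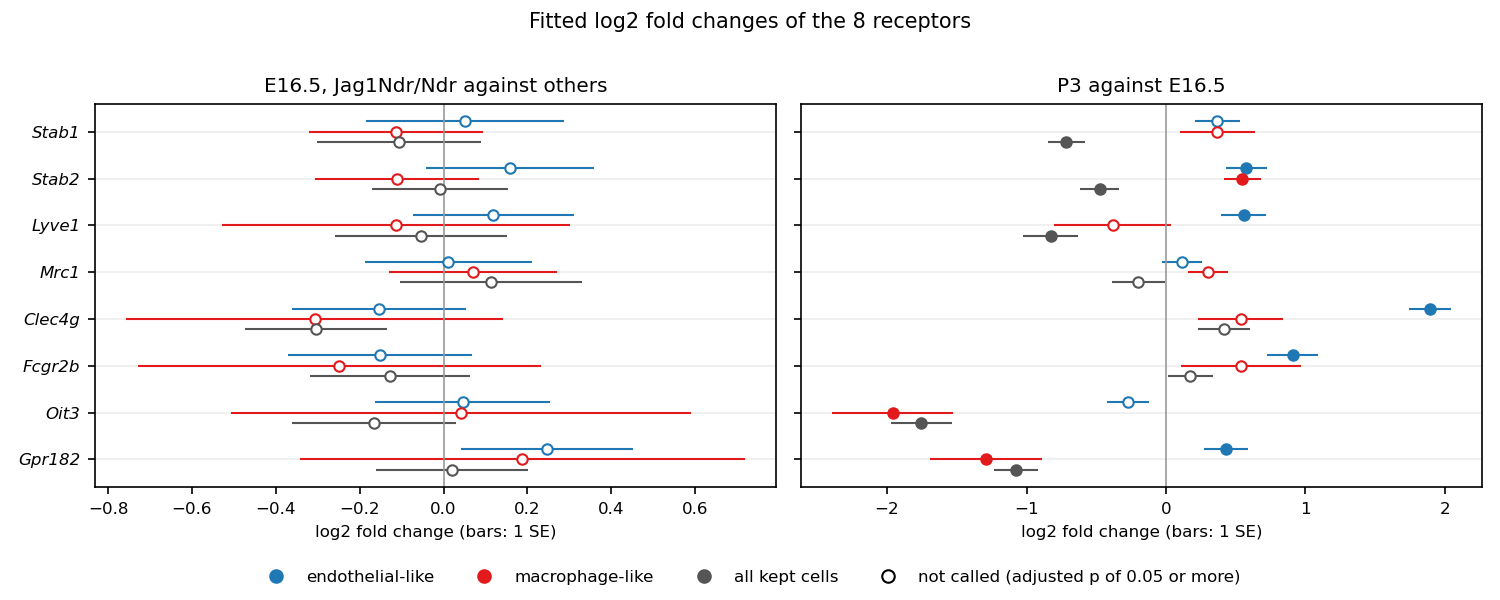
Fitted log2 fold change (points, with bars of 1 SE) of each gene (rows) in endothelial-like, macrophage-like and all kept cells, for Jag1Ndr/Ndr against the other libraries at E16.5 (left) and P3 against E16.5 (right). Filled points have an adjusted p under 0.05, and none is filled on the left, whereas Clec4g in endothelial-like cells stands furthest right at 1.89.

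Other transcripts moved with stage in the same cells. The summed level of the 25 endothelial markers in endothelial-like cells was 4822 to 7267 CPM at E16.5 and 9680 to 9978 CPM at P3, and that of the 18 macrophage markers 957 to 1505 and 2426 to 3128 CPM. Erythroid markers took 13.5% to 27.0% of UMIs at E16.5 and 8.94% to 22.5% at P3. In endothelial-like cells, 8 of 25 endothelial markers rose and 3 fell (median 0.30), 9 of 15 macrophage markers tested rose and 0 fell (0.69), 7 of 14 mesenchymal markers tested rose and 0 fell (0.94), and 13 of 17 erythroid markers tested fell and 0 rose (-1.69), counts added after seeing the data. Jag1Ndr/+ replicate 1 had the highest erythroid share at E16.5 and the lowest level of 7 of the 8 genes, all but Clec4g. With erythroid genes left out of the counts, a fit added after seeing the data, Clec4g, Fcgr2b, Stab2, Lyve1 and Gpr182 kept fold changes of 1.88, 0.89, 0.56, 0.54 and 0.42 and stayed called. The part of macrophage and general endothelial RNA in the stage changes was not tested. The leading genes of the contrast were near 0 at one stage (Atp6v0c 463 CPM at P3 against 0.660 at E16.5, Ptp4a1 0.311 against 60.6), and the gene lists differed with stage, so single genes of this contrast carry that limit.

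Of the 5 genes called higher, all but Clec4g turned in direction in a simpler gate, most of whose cells were not endothelial-like by cluster. A gate on marker UMIs in place of clusters gave Clec4g 0.62 (log2, edgeR adjusted p 0.169), and Fcgr2b -0.37, Stab2 -0.75, Lyve1 -0.73 and Gpr182 -0.85, all without a call. Mrc1 (-1.24, edgeR adjusted p 0.0384) and Oit3 (-1.60, adjusted p 0.0148) were called lower in that gate. Of the cells in that gate, 437 of 4131 (10.6%) at E16.5 and 151 of 2825 (5.35%) at P3 were endothelial-like by cluster. A narrower gate, added after seeing this, held 54.3% and 52.8% endothelial-like cells. It gave Clec4g 2.02, Fcgr2b 0.91, Stab2 0.54, Lyve1 0.65 and Gpr182 0.50, and all but Lyve1 (edgeR adjusted p 0.0683) were called.

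Genes of sinusoidal identity and uptake were read from lists beside the 8 members. Of 13 sinusoidal identity genes tested in endothelial-like cells, 7 rose, 2 fell and 4 were not called, with a median log2 fold change of 0.40 against 0.02 over all genes tested. Over all 9647 genes tested in these cells, 1587 were called higher and 1655 (17.2%) lower, which is the background of each list below. Wnt2, a ligand made by central sinusoidal endothelium, went from 27.3 to 131 CPM (2.01, SE 0.253, edgeR adjusted p 1.8e-05), and F8, the clotting factor made by these cells, from 199.9 to 494 CPM (1.04). The lysosomal protease gene Ctsl (1.06) and the endocytic recycling gene Ehd3 (0.85) also rose, and Nr2f2 (-0.60) and Tfec (-0.72), transcription factor genes, fell. Of 12 genes of continuous and arterial endothelium, 2 rose, 4 fell and 6 were not called, with a median of -0.27. Vwf (1.79) and the gap junction gene Gja4 (1.35) rose, while Gja5 (-1.73), Sox7 (-0.92), Sox17 (-0.82) and the Notch ligand gene Dll4 (-0.57) fell.

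Other uptake receptors were read against the same background. Of 18 tested, 8 rose, 2 fell and 8 were not called (median 0.55), among them Msr1 (1.49), a scavenger receptor for modified lipoproteins, Fcgrt (1.45), the neonatal Fc receptor, Axl (1.10) and Scarb1 (0.51). The largest values, Vsig4 (2.60) and Clec4f (2.14), belong to genes that are also macrophage markers here, as does Marco (1.43), and they moved with the macrophage list above. Of 21 genes of the uptake and lysosome machinery, 7 rose, 1 fell and 13 were not called (median 0.31). Ctsd (0.81), Lamp1 (0.79), Hexa (0.82) and Npc2 (0.81) rose, and the clathrin adaptor gene Dab2 (-0.43) fell. All 5 Fc receptor genes of a list without Fcgr2b rose (median 0.90), Fcgr3 by 0.81 and the shared gamma chain gene Fcer1g by 0.71, and these are leukocyte genes too.

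At E16.5, no member was called between Jag1Ndr/Ndr and the libraries without the homozygous label. This comparison set 2 libraries against 3 and asked whether homozygosity for the allele goes with other receptor levels. The 3 include Jag1Ndr/+ replicate 1 and the shared library, labelled both Jag1+/+ and Jag1Ndr/+. The allele was therefore not set against wild type alone. In endothelial-like cells 0 of 8 members were called in edgeR, against 0 of 10050 genes (0%), with 236 genes at an unadjusted p under 0.05 and 1 called by DESeq2. Fitted log2 fold changes ran from -0.15 (SE 0.207) for Clec4g to 0.25 (SE 0.204) for Gpr182, with Stab2 at 0.16, Lyve1 at 0.12, Stab1 at 0.05, Oit3 at 0.05, Mrc1 at 0.01 and Fcgr2b at -0.15. The homozygous and other libraries overlapped for all 8 members, whereas 12% of genes tested did not overlap. For Gpr182, the largest of these values, the homozygous libraries at 649 and 518 CPM lay on both sides of Jag1+/+ replicate 1 and the shared library.

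In macrophage-like cells 0 of 8 members were called, against 0 of 10990 genes (0%, with 161 at an unadjusted p under 0.05, and 2 by DESeq2), and in all kept cells 0 of 8, against 0 of 16146 (0%, with 169, and 4 by DESeq2), in the same edgeR test. The members' groups overlapped in both, as did those of all but 6.9% and 6.44% of genes. For Mrc1, the homozygous libraries held 252 and 294 CPM and the others 285, 355 and 167 CPM (log2 fold change 0.07, SE 0.201). No gene of the sinusoidal, arterial, uptake or Fc receptor lists was called in either class.

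At P3 the only libraries with a single genotype label were C (homozygous) and D (heterozygous), 1 each, so no test was made and the intervals (exact Poisson, 95%) cover counting error only. In endothelial-like cells Stab2 was 1225 CPM (1141 to 1313) in C and 959 CPM (866 to 1061) in D. Gpr182 was 886 CPM (815 to 961) in C and 714 CPM (633 to 802) in D. Mrc1 was lower in C, at 570 CPM (513 to 631) against 777 CPM (692 to 868), and so it was in macrophage-like cells, at 319 CPM (301 to 338) against 490 CPM (464 to 516). Stab1 in macrophage-like cells was 23.8 CPM (19.0 to 29.4) in C and 46.8 CPM (39.2 to 55.4) in D. The intervals of the other values overlapped. The share of all genes with intervals apart between C and D was not computed, so these values have no background here. In endothelial-like cells library B, of unclear genotype, was below both C and D for Lyve1 (1458 CPM), Stab1, Stab2, Clec4g, Fcgr2b and Oit3. Library A, also of unclear genotype, was below both for every member but Gpr182.

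Macrophage-like cells, led by C1qa, C1qb, Cd5l, Marco and Hmox1, numbered 743 to 1048 per library at E16.5 (4307 in all) and 659 to 1455 at P3 (4048 in all). Mrc1 and the stabilins were the members closest to their endothelial-like level. Mrc1 measured 285, 355, 167, 252 and 294 CPM at E16.5 and 359, 453, 319 and 490 CPM in libraries A to D, and the shared library overlapped with library C. The mean went from 270 ± 68.9 CPM (SD, n = 5) to 405 ± 79.5 CPM (SD, n = 4). edgeR gave 0.30 (log2, SE 0.143, adjusted p 0.103), and without library C 0.41 (adjusted p 0.0291).

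Stab2 in macrophage-like cells measured 50.4, 54.7, 26.0, 35.5 and 42.8 CPM at E16.5, and 63.8, 65.4, 88.2 and 80.5 CPM in libraries A to D. All P3 libraries lay above all E16.5 libraries, as for 37.3% of genes tested in this class. Stab2 rose by 0.55 (log2, SE 0.135, edgeR adjusted p 0.00549), beside 0.58 in endothelial-like cells. It was called in 19 of 20 alternatives, all but the marker gate (0.65, edgeR adjusted p 0.0899). Of the cells in the macrophage marker gate, 49.8% at E16.5 and 28.2% at P3 were macrophage-like by cluster. Another of the 20, the narrower gate, was made for endothelial cells only and repeats the main counts here. Of 10642 genes tested in macrophage-like cells 51.2% were called, 25.8% higher and 25.4% lower, so 1 member called higher of 8 stands beside a background of 25.8% and the 2 called lower beside 25.4%.

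Stab1 in macrophage-like cells measured 39.0, 46.9, 21.5, 26.4 and 37.7 CPM at E16.5, and 70.2, 66.7, 23.8 and 46.8 CPM in libraries A to D. Library C lay among the E16.5 libraries and libraries A and B were well above them. edgeR gave 0.37 (log2, SE 0.270, adjusted p 0.285). Without library C it was 0.61 (adjusted p 0.0223), and without libraries A and B it turned to -0.31.

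Among the sparse members in macrophage-like cells, Oit3 went from a mean of 4.41 to 1.33 CPM (log2 fold change -1.96, SE 0.435, edgeR adjusted p 0.0029). Gpr182 went from 6.72 to 3.41 CPM (-1.29, SE 0.402, adjusted p 0.0194), and both were called lower in this fit. The stages overlapped for both, since Jag1+/+ replicate 1 held 1.25 CPM of Oit3, within the P3 range, and 2.13 CPM of Gpr182, below it. The UMIs of both were few, with 3 to 12 UMIs of Oit3 per P3 library and 8 to 24 of Gpr182. Their levels went from 0.983% to 0.302% (Oit3) and from 1.27% to 0.41% (Gpr182) of those in endothelial-like cells. Endothelial markers such as Flt1 (1.02% to 0.307%) and Ptprb (1.07% to 0.42%) did the same, whereas Cdh5, Pecam1, Dnase1l3 and Plvap rose. In this class 8 of 18 endothelial markers tested were called lower and 3 higher. The part of endothelial RNA in both falls was not tested. Oit3 passed the low-count filter in 7 of 9 fits with 1 library left out, so its change was read near the limit of what could be tested. Gpr182 lost its call without Jag1Ndr/Ndr replicate 2 (adjusted p 0.0509), without library B (0.0639), without libraries A and B (0.143) and in the marker gate (log2 fold change -0.0369, adjusted p 0.946). Lyve1 (-0.38), Clec4g (0.54) and Fcgr2b (0.54) were not called. Lyve1 was 24.2 and 26.1 CPM in libraries A and B and 5.81 and 9.15 CPM in C and D, and without A and B its log2 fold change was -1.70 (edgeR adjusted p 0.0113).

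Endothelial RNA in macrophage-like cells was read from endothelial markers. Kdr stood at 1.16% and 0.542% of its endothelial-like level at E16.5 and P3 and Ptprb at 1.07% and 0.42%, below the 7.61% and 7.67% of Stab2. Cdh5, by contrast, stood at 28.9% and 39.6%, and Pecam1 at 9.21% and 14.3%. The 25 endothelial markers summed to 213 to 396 CPM at E16.5 and 258 to 361 CPM at P3 in these cells, and the 18 macrophage markers to 8328 to 11196 and 25475 to 32051 CPM. In the same test, 14 of 18 macrophage markers rose and 0 fell, 3 of 18 endothelial markers tested rose and 8 fell, and 13 of 17 erythroid markers tested fell, where erythroid markers took 21.6% to 40.7% of UMIs at E16.5 and 16.6% to 29.9% at P3. Of 18 other uptake receptors tested in macrophage-like cells, 13 rose, 2 fell and 3 were not called (median 1.06 against 0.01 over all genes), but several of them are macrophage markers.

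**Figure D4:**
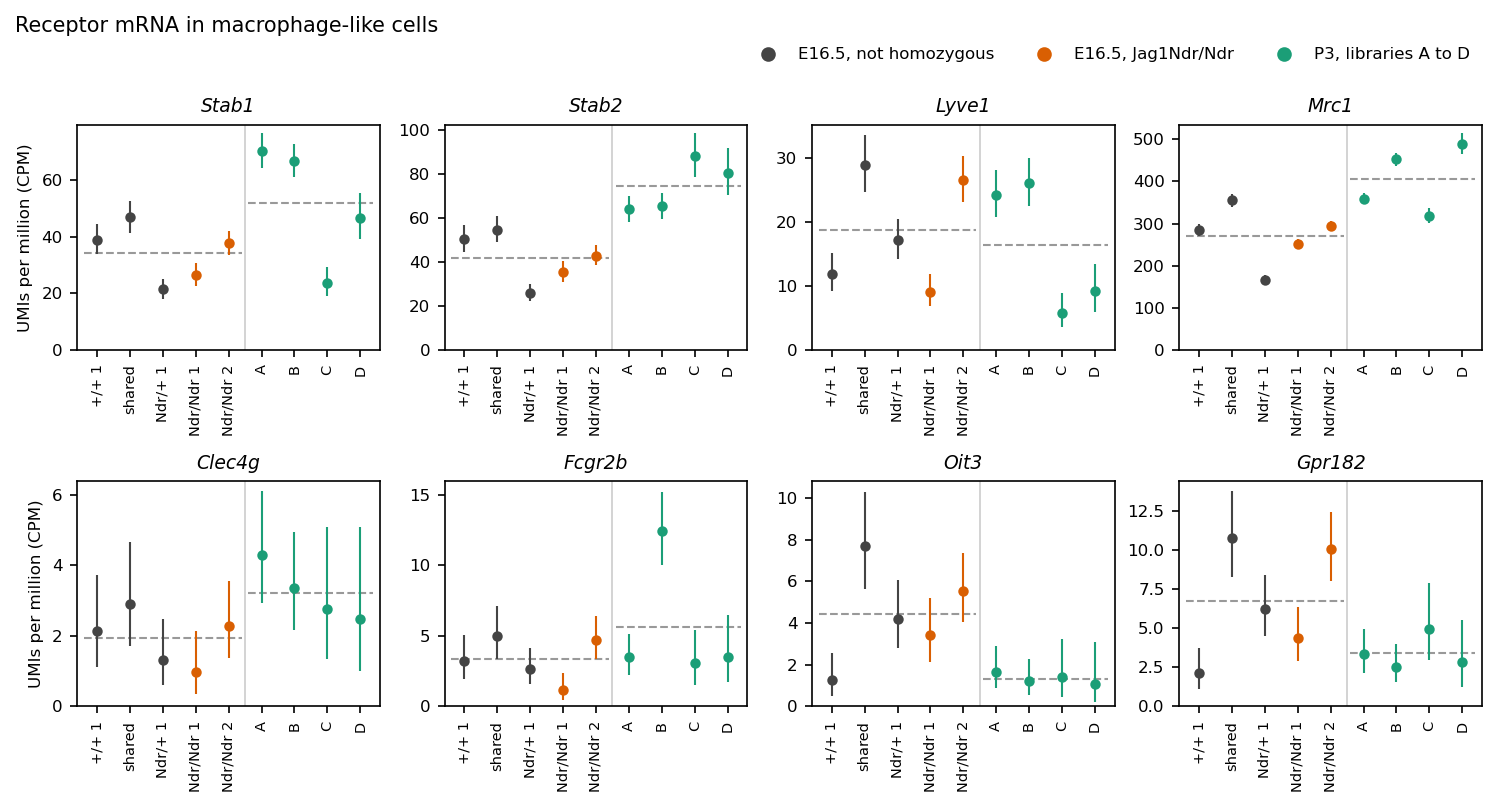
CPM of each of the 8 genes (panels) in the macrophage-like cells of each library (points, with exact 95% Poisson intervals that cover counting error only), with stage means as dashed lines. Stab2 is higher in all P3 libraries (63.8 to 88.2 CPM) than at E16.5 (26.0 to 54.7 CPM), whereas for Stab1 library C sits at 23.8 CPM among the E16.5 libraries.

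Shares of cells with a UMI were compared after each cell had been thinned to 1000 UMIs, a depth that every kept cell reached. Clec4g was detected in 14.7%, 14.1%, 14.0%, 10.5% and 11.0% of endothelial-like cells at E16.5, and in 40.7%, 43.0%, 47.1% and 45.0% in libraries A to D. Unthinned, its shares were 46% to 58.9% and 67.4% to 85.6%. Lyve1 was detected in 37.4% to 60.3% of the cells before birth and 63.3% to 81.7% at P3, and Stab2 in 27.0% to 41.4% and 51.9% to 61.5%. These 3 shares did not overlap between stages, nor did those of Gpr182 (23.5% to 39.8% and 46.8% to 56.7%), Stab1 (22.9% to 38.4% and 45.2% to 51.0%), Fcgr2b (6.14% to 11.6% and 14.4% to 22.2%) and Mrc1 (30.7% to 41.4% and 41.8% to 54.0%). Endothelial markers did the same, with Kdr at 31.3% to 45.9% and 49.6% to 58.0%, Ptprb at 10.1% to 32.3% and 50.6% to 66.0%, and Pecam1 at 10.5% to 24.8% and 27.9% to 32.6%, whereas Cdh5 overlapped. Oit3 overlapped, at 22.5% to 33.5% and 27.8% to 38.5%. For Mrc1 the stages lay only just apart (41.4% and 41.8%). The share of all genes without overlap on this measure was not computed, so the members' non-overlap has no background here. In erythroid-like cells no member exceeded 0.450% of thinned cells, or 1.87% unthinned, at median depths of 4982 to 9310 UMIs at E16.5 and 2748 to 5608 at P3. Unthinned endothelial-like cells, at median depths of 8186 to 11039 and 3030 to 5108 UMIs, held a median of 6 or 7 of the 8 members.

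Members were found in the same cells. Among endothelial-like cells at E16.5, Stab1 was detected in a median of 41.2% of thinned cells with a Stab2 UMI and 24.4% of those without, and Lyve1 in 70.4% and 42.3%. Both were higher with Stab2 in 5 of 5 libraries, as were Mrc1, Oit3 and Gpr182, while Clec4g was higher in 4 and Fcgr2b in 3. At P3 all 7 other members were higher with Stab2 in 4 of 4 libraries, with Mrc1 at 62.0% against 25.8% and Clec4g at 57.6% against 27.5%. Kdr, which is no member, behaved alike (56.4% against 30.8% at E16.5, 65.8% against 33.4% at P3), but other markers varied. At E16.5, Kdr and Cdh5 were higher with Stab2 in 5 of 5 libraries and Ptprb in 3, and of the macrophage genes C1qa was higher in 5, Cd5l in 3 and Adgre1 in 1. At P3, Kdr, Ptprb, C1qa and Cd5l were higher in 4 of 4 libraries, Cdh5 in 3 and Adgre1 in 2. The part of the general endothelial content of a cell in this pattern was not tested. In macrophage-like cells, Stab2 was detected in a median of 5.85% of cells with an Mrc1 UMI and 2.48% of those without at E16.5, and in 9.01% and 5.70% at P3, and was higher with Mrc1 in 5 of 5 and 4 of 4 libraries. C1qa was likewise higher with Mrc1 in all 9 libraries.

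Within the endothelial-like class the members varied together between sub-clusters, with some exceptions. Sub-clusters were formed from all libraries of a stage together, so their levels are a description over summed cells. At E16.5, sub-cluster 4 (177 cells) held 1697 CPM of Lyve1, 793 of Stab2 and 297 of Clec4g. Sub-cluster 6 (57 cells), led by Tm4sf1, Gja5, Mecom and Cldn5, genes known from arterial and continuous vessels, held 351 CPM of Stab2, 133 of Oit3 and 29.6 of Fcgr2b. Its Stab2, Lyve1 (524 CPM), Gpr182 (374 CPM) and Clec4g (118 CPM) were above those of sub-clusters 7, 8 and 9. Its Oit3 and Fcgr2b were below them, and its Stab1 and Mrc1 among them. Every member was lower in sub-cluster 8 (148 cells) than in sub-cluster 4, with 175 CPM of Stab2 and 364 of Lyve1, and its leading genes also included Fabp4, Mest, Sparc and Kdr. Its median depth was 4118 UMIs against 10760 in sub-cluster 4, and its mean endothelial marker z score 0.932 against 1.64. The part of general endothelial content in its member levels was not tested. Sub-cluster 1 (88 cells) held 1778 CPM of Lyve1 but 93.6 of Clec4g.

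At P3, sub-cluster 1 (193 cells) held 3417 CPM of Lyve1, 1673 of Stab2, 1265 of Clec4g and 432 of Fcgr2b. Sub-cluster 13 (19 cells), led by Cldn5, Ednrb and Tm4sf1, held 304 CPM of Stab2, 112 of Clec4g (54 to 207) and 78.7 of Oit3 (31.7 to 162), with Gpr182 at 652 CPM. Sub-cluster 5 (43 cells), led by Rspo3 and Plvap, known from central vein endothelium, held 1598 CPM of Lyve1 and 700 of Stab1. Its Fcgr2b was 20.4 CPM (5.57 to 52.3, from 4 UMIs), its Clec4g 204 CPM and its Mrc1 240 CPM. Fcgr2b, Clec4g and Mrc1 were thus low there where Lyve1 and Stab1 were not. The largest library gave 48.8% of the cells of sub-cluster 5 and 28.5% of those of sub-cluster 1. One of the 7 sub-clusters at P3 had the mesenchymal gene Dcn among its leading genes.

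**Figure D5:**
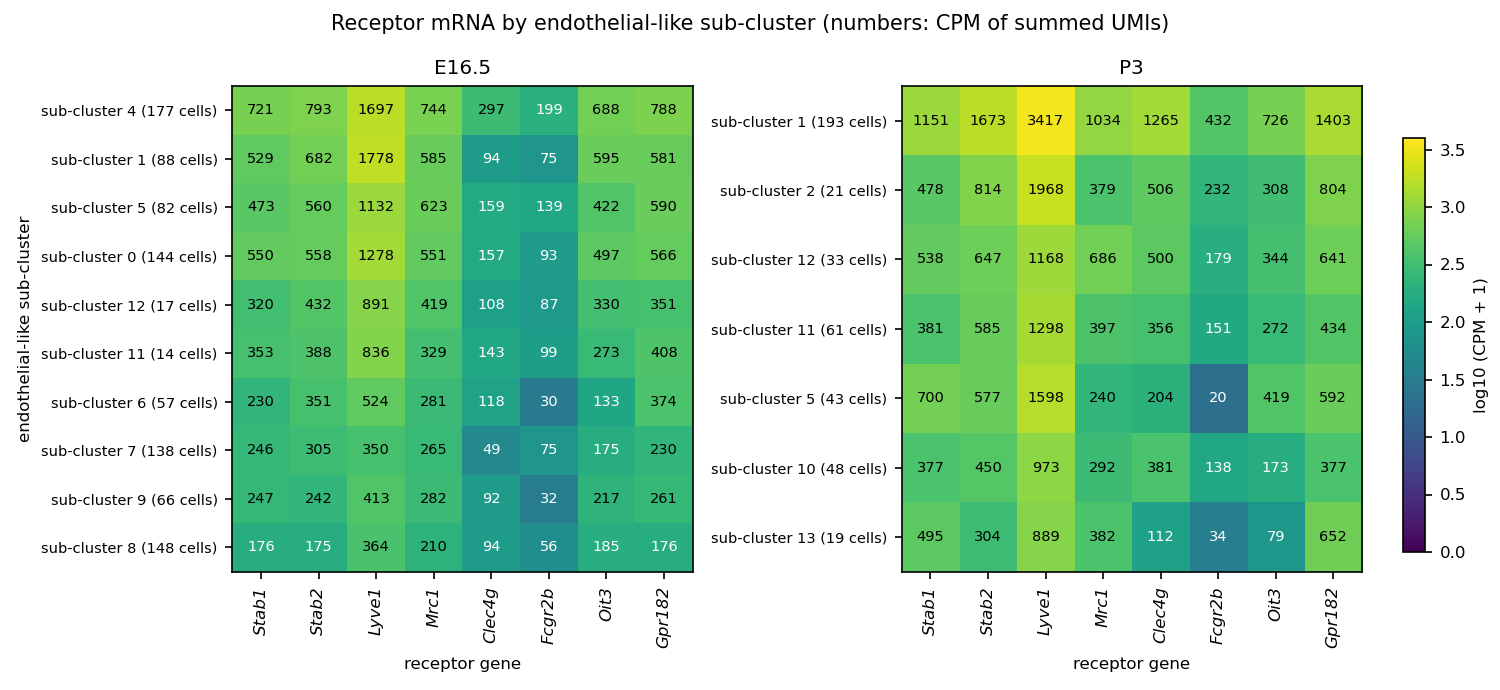
CPM (printed in each cell, coloured as log10 of CPM plus 1) of the 8 genes (columns) in each endothelial-like sub-cluster (rows, with the number of cells, ordered by Stab2), at E16.5 (left) and P3 (right). Sub-cluster 1 at P3 is highest for all 8 genes, and sub-cluster 5 combines Lyve1 at 1598 CPM with Fcgr2b at 20.4 CPM.

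Outside these cells, mesenchymal-like cells came next for most members at E16.5. They held 28.8% (Stab2) to 50.6% (Clec4g) of the endothelial-like level, for instance 159 ± 38.5 CPM (SD, n = 5) of Stab2 and 378 ± 28.9 CPM (SD, n = 5) of Lyve1. Endothelial markers stood there at 24.7% to 64.3% of their endothelial-like level, and the part of endothelial RNA in the members' levels there was not tested. At P3, Stab2 measured 36.4, 67.7, 392 and 19.0 CPM in libraries A to D (24, 19, 59 and 1 UMIs), so library C stood apart, and in libraries A and D the level was below that in macrophage-like cells. The 25 endothelial markers summed to 2983 CPM in mesenchymal-like cells of library C and to 859, 948 and 1043 CPM in those of A, B and D. Hepatocyte-like cells held 5.47 to 42.8 CPM of the members at E16.5 and 4.64 to 33.1 CPM at P3. In the blood cell classes other than macrophage-like cells, members other than Fcgr2b had means of at most 10.7 CPM at E16.5 and 28.0 CPM at P3.

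Fcgr2b was also measured in leukocyte classes. It measured 25.8 ± 5.56 CPM (SD, n = 5) in neutrophil-like cells at E16.5 and 29.9 ± 1.00 CPM (SD, n = 4) at P3, and in monocyte-like cells 20.6 ± 4.42 and 34.6 ± 3.28 CPM. Basophil and mast-like cells, led at E16.5 by Pf4 and Ppbp as well as Mcpt8, held 16.48 ± 5.26 and 20.9 ± 4.39 CPM, B-like cells 5.58 ± 2.04 and 12.2 ± 2.12 CPM, and dendritic-like cells, named at P3 only, 21.8 ± 6.42 CPM. At E16.5 neutrophil-like cells held more than monocyte-like and more than basophil and mast-like cells in 5 of 5 libraries, with no test made. Neutrophil-like cells held 46.8% of all Fcgr2b UMIs at E16.5 and 46% at P3, and endothelial-like cells 17.5% and 12%. Endothelial-like cells held 73.4% and 78.8% of Oit3 UMIs, 73.5% and 72.8% of Lyve1 UMIs and 70.2% and 74.8% of Gpr182 UMIs. Macrophage-like cells held 49.3% and 73.6% of the Mrc1 UMIs.

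In sums over all kept cells, fewer cells of a type and less RNA per cell cannot be told apart. There, Oit3 fell from a mean of 7.75 to 3.27 CPM (log2 fold change -1.75, SE 0.218, edgeR adjusted p 0.000108). Gpr182 (-1.08), Lyve1 (-0.83), Stab1 (-0.71) and Stab2 (-0.48) fell as well in this fit, and Mrc1, Clec4g and Fcgr2b were not called. Of 14394 genes tested 52.9% were called, 25.9% lower, beside 5 of 8 members lower. Oit3 alone of the 8 did not overlap between stages, against 42.4% of genes. The plain mean CPM moved less than the TMM-scaled fit, from 9.44 to 6.40 for Gpr182, 20.4 to 16.3 for Lyve1 and 10.3 to 8.90 for Stab1. For Stab2 (10.9 to 11.3 CPM) and Mrc1 (21.9 to 27.6 CPM, fit -0.20) the means and the fit differed in sign. Endothelial-like cells were 0.712% to 1.58% of kept cells at E16.5 and 0.501% to 0.735% at P3.

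The genes other than the 8 members that were most like 3 of them across 10 cell classes at E16.5 were found by Pearson's r over class means of 8533 genes, as a description over classes that share libraries. For Stab2 they were Dmwd (0.987), Nrp2 (0.980) and Rhoc (0.978). For Mrc1 they were Cdh5 (0.994), a marker used in naming, Cttnbp2nl (0.989) and Dysf (0.987). For Fcgr2b they were Plxnc1 (0.965), Shc1 (0.953) and Rybp (0.952).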

How the data were processed

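Single-cell RNA libraries of mouse liver were analysed from the deposited matrices of raw UMI counts per gene and barcode, which the authors made with 10x Genomics software. Per the file headers the version was 3.0.2 at P3 and 3.1.0 at E16.5, whereas the submitters' processing notes list Cell Ranger 2.1.1, R 4.1.2, Seurat and mm10. Strand use and counting options are not given in the sources used here. The deposited gene and barcode lists hold no measurements.

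Barcodes under 1000 UMIs or over 15% mitochondrial UMIs were left out. Scrublet called doublets in each library (expected rate 0.008 per 1000 barcodes, automatic thresholds). It marked 9.86% to 13.4% of barcodes at E16.5 and 4.11% to 9.50% at P3. Clusters with over 50% doublets were removed, which occurred at P3 only. They included cluster 25 (439 cells, 52.2% doublets), led by Ptprb, Cd5l and Ltf, and cluster 31 (318 cells, 61.95%), led by Marco and Cd5l. Their cells not called doublets were left out too, also in the alternative with doublets kept. Each stage was clustered in scanpy 1.11.5 (2000 variable genes less the 8 members, mitochondrial genes, and Xist, Tsix and Y-linked genes, which left 1982 at E16.5 and 1991 at P3, 30 components, 15 neighbours, Leiden resolution 1, igraph 0.11.9). A cluster was named for the class that had most markers in its 10 leading genes, and ties, also at 0, went to the class with the highest mean marker z score (at least 0.25 where no marker led). Clusters 3 and 21 at E16.5 and 0, 6 and 9 at P3 were named erythroid-like by that score alone. After the first clusters had been seen to mix endothelial and mesenchymal cells, those clusters were clustered again with 20 components and the naming score was settled. The rebuilt names can differ from the authors' own.

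UMIs were summed per class and library, for classes with at least 10 cells, and tested with edgeR 4.0.16 (TMM, filterByExpr, quasi-likelihood test, R 4.3.3) with Benjamini-Hochberg adjustment over all pairs of class and gene, 97455 for stage and 102887 for genotype, and separately over the genes of all kept cells, 14394 and 16146, at 0.05. DESeq2 1.42.0 was an alternative, beside other scaling, filters, gates and left-out libraries. Intervals are exact Poisson intervals at 95% and cover counting error only. The tests were tested on simulated data. The 8 members are named in every comparison. List genes named are among those called, but not always those with the largest change, as in the Fc receptor list. Ctsl and Fcgrt each count in a further list as well. Members and lists were chosen with earlier results of these data known. The fits without erythroid genes, the narrower gate, the ratio of classes between stages and the counts over marker lists were added after seeing the data. The narrower gate was made for endothelial cells only, so in macrophage-like cells that alternative repeats the counts of the main fit.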

Additional observations from a re-analysis of the deposited data

Results flagged for a closer look

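In 3 of 48 groups of libraries tested, 1 library lay further from the rest than Dixon's 95% limit allows, and chance gives about 1 in 20. Over all kept cells at E16.5, Oit3 was highest in the shared library at 13.2 CPM, with the others at 5.17 to 7.25 CPM. In endothelial-like cells at E16.5, Lyve1 was lowest in Jag1Ndr/+ replicate 1 at 924 CPM, with the others at 1205 to 1270 CPM, and that library had the highest erythroid share of the 5. In macrophage-like cells at P3, Fcgr2b was highest in library B at 12.4 CPM, from 93 UMIs, with the others at 3.04 to 3.52 CPM.

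The log2 ratio of endothelial-like to macrophage-like CPM (with 1 CPM added to both) changed from E16.5 to P3 for 3 of 8 members before correction. The change was 1.58 for Clec4g (from 5.78 to 7.36, exact permutation p 0.00794, two-sided, the smallest that the 126 splits of 5 and 4 libraries can give). It was 1.35 for Gpr182 (exact p 0.0476) and -0.247 for Mrc1 (from 0.95 to 0.70, exact p 0.0397), so the Mrc1 levels of the 2 classes came closer together. The other 5 had exact p of 0.0556 (Oit3) to 0.881 (Stab2). These 8 tests were added after seeing the data, share their libraries and are given without adjustment. The same test was not run for other genes, so the 3 of 8 has no tested background to stand beside. Untested levels of the endothelial markers moved alike for most of them. From E16.5 to P3 the macrophage-like share of the endothelial-like mean fell for Clec4g and Gpr182. It also fell for every endothelial marker but Cdh5, Pecam1, Dnase1l3 and Plvap, for which it rose. Whether Clec4g and Gpr182 changed more than these markers was not tested.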

How the results depend on the processing

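No member was called for genotype in any alternative run, and the counts of genes stayed small. DESeq2 called 1 gene in endothelial-like, 2 in macrophage-like and 4 in all kept cells, and with no filter on low counts edgeR called 38, 65 and 2. Leaving out 1 library at a time gave 0 to 15, 0 to 11 and 0 to 1, where a fit without a homozygous library leaves 1 in that group, assumed to vary like the others. The replicate number as a block gave 0 calls in both classes. Deviations of same-numbered libraries from their group means had r 0.0321 in endothelial-like and 0.112 in macrophage-like cells. With 2 homozygous libraries the replicates mirror each other, so this is a single value per class. It cannot show whether same-numbered samples belong together. No scaling moved the median of all genes by over 0.1.

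Genotype signs, none of them called, turned under several alternatives, also for Gpr182, the largest in endothelial-like cells at 0.25. In the endothelial marker gate 10.6% of cells at E16.5 were endothelial-like by cluster. It gave Stab1 -0.572, Stab2 -0.340, Lyve1 -0.558, Mrc1 -0.575, Oit3 -0.620 and Gpr182 -0.594. The narrower gate gave Mrc1 -0.0915, Clec4g 0.047, Oit3 -0.0514 and Gpr182 -0.049. In endothelial-like cells the replicate block gave Mrc1 -0.0136. The macrophage marker gate, in which 49.8% of cells at E16.5 were macrophage-like by cluster, gave Stab1 0.198, Stab2 0.118, Lyve1 0.449 and Fcgr2b 0.209. In macrophage-like cells the block gave Oit3 -0.0675. In all kept cells Stab2 was 0.00885 in DESeq2, 0.0089 with RLE scaling and 0.011 without erythroid genes, and Gpr182 -0.00117 with doublets kept. Leaving out 1 library, endothelial-like ranges were -0.252 to 0.299 for Stab1, -0.0673 to 0.0758 for Mrc1, -0.298 to 0.0624 for Fcgr2b and -0.197 to 0.25 for Oit3. Macrophage-like ranges were -0.290 to 0.0459 (Stab1), -0.255 to 0.00427 (Stab2), -0.974 to 0.393 (Lyve1), -0.0546 to 0.170 (Mrc1), -0.968 to 0.0696 (Clec4g), -1.52 to 0.330 (Fcgr2b), -0.386 to 0.468 (Oit3) and -0.436 to 0.586 (Gpr182). Ranges over all kept cells were -0.221 to 0.0782 (Stab1), -0.0878 to 0.110 (Stab2), -0.160 to 0.151 (Lyve1), -0.0334 to 0.310 (Mrc1), -0.259 to 0.0156 (Oit3) and -0.0669 to 0.200 (Gpr182).

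For stage, the endothelial marker gate, with few endothelial-like cells, called 5213 genes, where the endothelial-like class had 3242. That gate gave Stab1 -0.844, Stab2 -0.753, Lyve1 -0.734, Mrc1 -1.24, Fcgr2b -0.372 and Gpr182 -0.852. The following counts are for endothelial-like cells. Clec4g, Fcgr2b and Stab2 were called in 19 of 20 alternatives, all but that gate, and Lyve1 in 18. In macrophage-like cells Stab1 was -0.314 and Fcgr2b -0.373 without libraries A and B, Lyve1 was 0.033 in the marker gate, and leaving out 1 library gave Fcgr2b -0.223 to 0.730. Oit3 there had a value in 7 of 9 such fits, since the filter removed it in the others. The cause of these changes was not tested. Endothelial-like levels stayed within their spread with doublets kept, at a minimum of 2000 UMIs and as medians over libraries. Ratios of libraries C and D stayed within their intervals with doublets kept. Neither was rerun in the marker gate. Depth limits the sparse members in macrophage-like cells, where Clec4g, Fcgr2b, Oit3 and Gpr182 had 3 to 93 UMIs per library at P3.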

Other observations

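Megakaryocyte-like cells held Clec4g and Lyve1 at P3. Clec4g measured 22.8, 23.1, 48.8 and 17.4 CPM in libraries A to D, from 75, 36, 58 and 16 UMIs, and Lyve1 20.6, 18.0, 12.6 and 16.4 CPM. Stab1, by contrast, was at 3.64 and 1.92 CPM in libraries A and B, and 0 UMIs were counted in C and D, which allows up to 2.52 and 3.27 CPM (3 counts). In erythroid-like cells the means at P3 were 0.878 CPM for Clec4g and 1.64 CPM for Lyve1. Megakaryocyte-like cells were 40 to 76 per library, at median depths of 10236 to 26052 UMIs. At E16.5 the class was shallower, with 147962 to 297594 UMIs per library, and 4 of the 5 libraries held 1 to 4 UMIs of Clec4g, at 4.20 to 27.0 CPM, so the stages overlapped. The library with 0 UMIs allows up to 10.1 CPM (3 counts). The basophil and mast-like cluster at E16.5, led by Pf4 and Ppbp as well as Mcpt8, held a mean of 4.77% of Clec4g UMIs there (0.811% to 8.37% over libraries). For that class at P3 the mean was 0.604% (0.268% to 0.969%), so the stages overlapped.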
